A study of Homo sapiens with 8 samples.

Results

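The rows of a bulk RNA-seq count table that carry names of chromosome 21 genes were followed through 8 populations of PC9, a cell line from a human lung adenocarcinoma driven by mutant EGFR. A row was taken when its name matched the symbol of a single gene in the GENCODE annotation and that gene lies on chromosome 21. This gave 298 rows, of 22664 rows with a gene symbol and 30988 rows in all. The chromosome was selected on its median expression differences between the libraries, seen in earlier results of these data. The medians, windows, shares and counts of rows below are therefore descriptions, without a test.

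The populations all carry a deletion in exon 19 of EGFR and were grown without drug in RPMI medium with serum. PC9-VU is the version kept at Vanderbilt University, and PC9-MGH is the version kept separately at Massachusetts General Hospital. PC9-BR1 was raised from PC9-VU under increasing doses of afatinib, an EGFR inhibitor, and is the population listed as positive for the EGFR T790M mutation. DS3, DS6, DS7, DS8 and DS9 are sublines of PC9-VU, each grown out from a single labelled cell, so each stands for 1 clone of the parent. Each population has 1 library, with between 2717355 (PC9-BR1) and 3497722 (PC9-VU) counts in rows with a symbol. Without replicates, differences between populations have no measure of error between cultures, and p-values are not reported. Intervals of medians are 95% order-statistic intervals over rows, which describe the spread of rows and not the spread of cultures. Intervals of counts and shares cover counting error only.

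Chromosome 21 is the smallest human autosome and carries nearly all of its genes on the long arm. An extra copy of it causes Down syndrome, and in cancer cell lines whole chromosomes and arms are often gained or lost. RNA from the genes of a gained chromosome tends to be raised and RNA from a lost one lowered, with wide differences from gene to gene. Expression of a region can also change with no change in the number of copies. Copy number was not measured in these libraries.

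Most of the rows held little or nothing. Of the 298 rows, 171 had no count in any library, 76 had counts but a mean under 10, and 51 had a mean of at least 10 counts over the 8 libraries. These 51 are 17.1% of the rows named for the chromosome, against 28.5% of all rows with a symbol. Of them, 37 were named for protein-coding genes and the others for long noncoding RNAs. A row that passed the mean only through a population in which it is high had to differ, so the 51 rows do not stand for all 298. The median counting error of a row's log2 difference between libraries was 0.24.

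The position of a row could be read from its name only roughly. The exons of the named genes were moved together along the chromosome, and at each step it was counted how many rows lay over an annotated exon of a protein-coding gene. Unmoved, 78.4% of the 51 counted rows and 73.1% of the 216 rows with a mean under 1 count did so, a difference of 5.28 percentage points. Moved by 1420 kb toward the end of the long arm, the shares were 88.2% and 16.7%, a difference of 71.6 points. The median difference over all steps was 20.6 points, and the highest more than 100 kb away from that distance was 47.8 points.

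**Figure D1:**
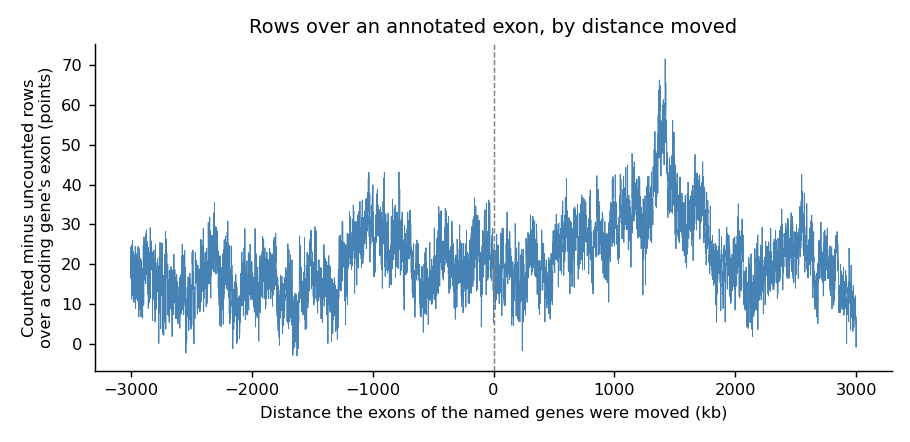
Difference between counted rows (mean of at least 10 counts) and uncounted rows (mean under 1 count) in the percentage lying over an exon of a protein-coding gene, against the distance in kb by which the exons of the named genes were moved. The dashed line marks the unmoved names, where the difference is 5.28 points, and the peak lies at 1420 kb with 71.6 points.

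The distance was not the same along the whole chromosome. The counted rows on the centromere side peaked at 1372.2 kb, where 96.0% of them and 13.0% of the uncounted rows of that side lay over an exon. Those on the telomere side peaked at 1420 kb, with 96.2% and 16.1%. A border at the 22nd counted row let each side take its own distance, and 96.1% of all counted rows against 13.4% of uncounted rows then lay over an exon. The distances and the border were chosen on these values. Of the uncounted rows, 23 would move past the end of the chromosome, and none of them held a count. They cannot lie over an exon there, which lowers the share of uncounted rows that do. The names are thus used here only to order the rows, which the move leaves in the same order, and no result below is read as the expression of the gene in a row's name. How the names and counts came to be apart was not tested.

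The sequence at a moved position shows what such a row lies over. The 2 stretches below are given because they lie under 2 of the 3 rows that differed most between populations, named KRTAP10.4 and KRTAP10.12. For the row between them, named KRTAP10.5, no stretch of 60 coding bases was found. They are 60 bases each of coding exon in the hg38 reference, plus strand, at chr21:45994169-45994228 in COL6A1 and chr21:46117876-46117935 in COL6A2, the genes for a pair of chains of type VI collagen. No letters are set in capitals because no motif was searched.
KRTAP10.4 row, COL6A1 exon: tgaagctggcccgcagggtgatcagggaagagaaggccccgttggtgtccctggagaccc
KRTAP10.12 row, COL6A2 exon: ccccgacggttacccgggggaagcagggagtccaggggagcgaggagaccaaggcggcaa

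At the moved positions 49 of the 51 rows lay over exons of protein-coding genes. Each row was assigned to the gene it overlapped most, which gave 36 different genes. Some rows also overlapped exons of further genes, up to 4 genes in all for the rows named HUNK and DSCAM. By this assignment 11 genes had more than 1 row. Together they hold 24 rows, with up to 3 rows for 1 gene (PCNT and ADARB1). Counting the further genes would add shared genes, RIPK4 among them. Rows under 1 gene are not independent of each other, so the 51 rows carry fewer separate measurements than their number.

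The chromosome as a whole was highest in DS3 and lowest in DS8. The median log2 difference from PC9-VU over the 51 rows, in log2 CPM (counts scaled to the library total, with TMM factors and a prior count of 2), was 0.28 in DS3 (interval 0.21 to 0.38), a level 1.21 times that of PC9-VU. It was -0.14 in DS7 (-0.32 to -0.03), -0.23 in DS9 (-0.29 to -0.14), -0.28 in DS6 (-0.38 to -0.22) and -0.45 in DS8 (-0.52 to -0.27), the last being 0.734 times the level of PC9-VU. The 4 other sublines thus lay on the opposite side of the parent from DS3. PC9-BR1 stood at -0.34 (-0.50 to -0.17). PC9-MGH stood at -0.09 with an interval on both sides of 0 (-0.44 to 0.16).

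The direction was shared by most rows in DS3, DS6, DS8, DS9 and PC9-BR1. In DS3, 42 of the 51 rows were above PC9-VU, where 51.3% of all 6456 rows that passed the same minimum were. DS6, DS8 and DS9 each had 10 rows above PC9-VU, against 51.3%, 50.4% and 50.7% of all rows. PC9-BR1 had 13 (50.1% of all rows) and DS7 had 18 (49.8%). In PC9-MGH 24 rows were above PC9-VU, close to the 49.2% of all rows.

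The number of rows that moved far differed between libraries. At least 1.5-fold above PC9-VU, the ratio of 3 to 2 copies of a chromosome, were 5 rows in DS3 (6.43% of all rows), 0 in DS6 (8.5%), 2 in DS7 (5.7%), 4 in DS8 (11.6%), 1 in DS9 (7.78%), 2 in PC9-BR1 (8.66%) and 11 in PC9-MGH (16.9%). At least 1.5-fold below were 16 rows in DS8 (12.1% of all rows), 13 in PC9-BR1 (10%), 9 in DS7 (9.25%), 8 in DS6 (8.12%), 5 in DS9 (7.28%), 1 in DS3 (6.8%) and 10 in PC9-MGH (20.6%). The count of DS3 at least 1.5-fold above PC9-VU is 9.8% of the 51 rows, near its background, while 42 rows were above by any size. The middle 50% of the rows spanned 0.39 log2 units in DS3, 0.33 in DS6 and 0.31 in DS9. In DS7, DS8 and PC9-BR1 it spanned 0.53, 0.57 and 0.60, and in PC9-MGH 1.05.

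Placed in order of their medians from PC9-VU, the libraries ran from DS3 through PC9-VU, PC9-MGH, DS7, DS9, DS6 and PC9-BR1 to DS8. Of the neighbours in this order, DS3 and PC9-VU alone had an interval that did not span 0. Of all 28 pairs, 15 had such an interval. DS3 lay above DS8 by 0.62 (0.52 to 0.83), a ratio of 1.54, with 38 of 51 rows higher. It lay above PC9-BR1 by 0.62 as well (0.34 to 0.78), with 44 rows higher, and above DS6 by 0.50 (0.43 to 0.63), with 45 rows higher. Shares over all rows were not computed for these pairs, so their counts of rows are values only.

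**Figure D2:**
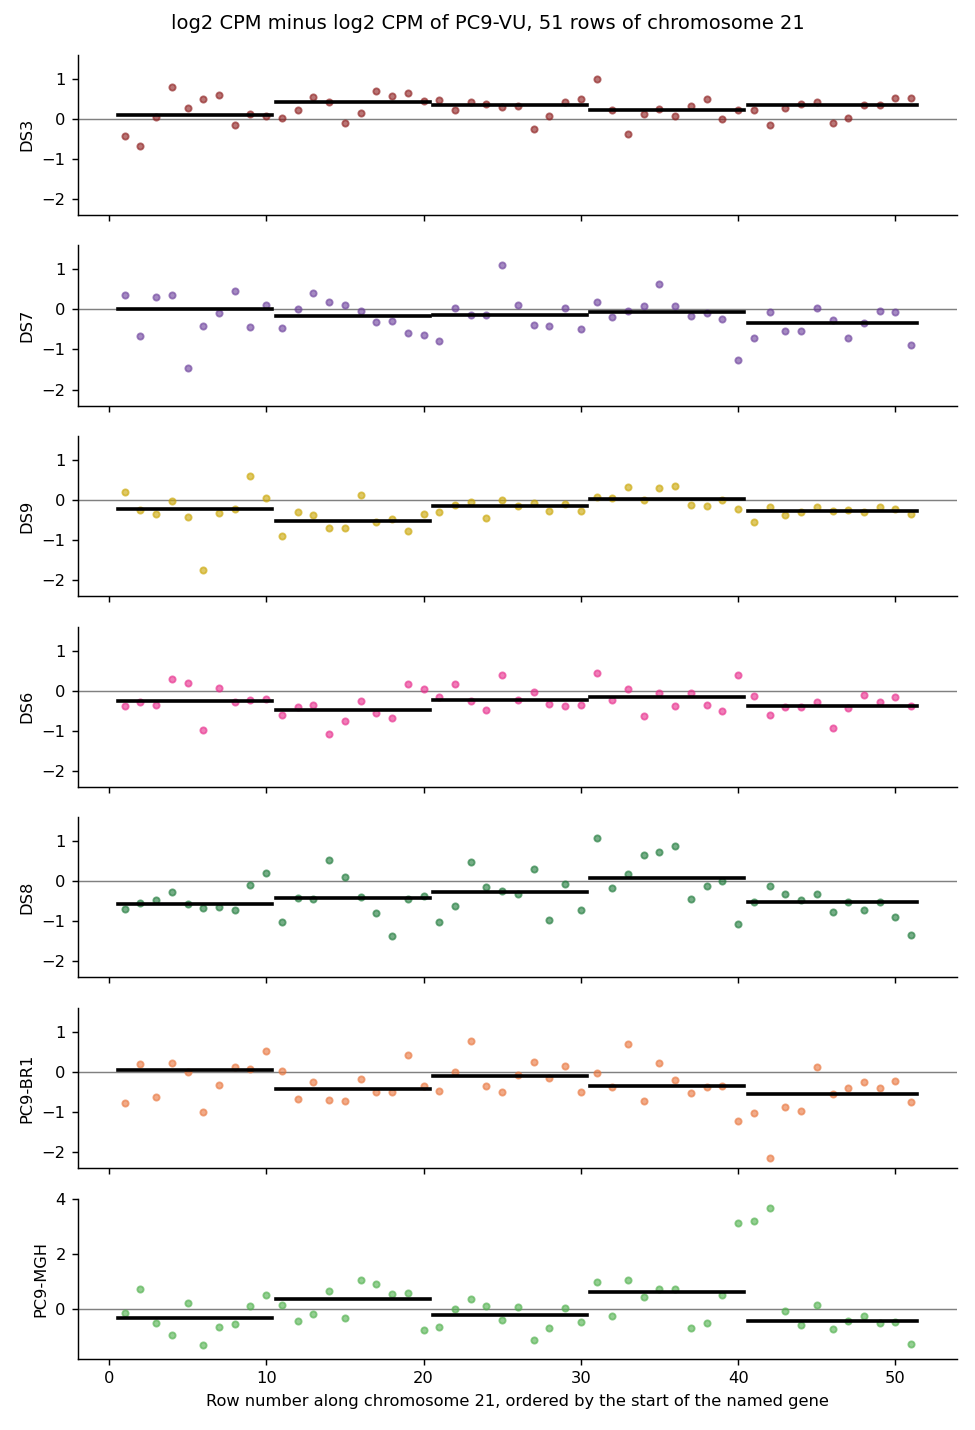
Difference in log2 CPM from PC9-VU (vertical axis) for each of the 51 counted rows in their order along chromosome 21 (horizontal axis), 1 panel per library. Points are rows and black bars are medians of consecutive windows of 10 rows (11 in the last); the bars of DS3 lie above 0 in all 5 windows and those of DS6 below 0 in all 5, and 3 rows of PC9-MGH near row 41 lie above 3 (the PC9-MGH panel has its own vertical scale).

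Along the chromosome the window medians of DS3 and of DS6 each kept to 1 side of PC9-VU. The counted rows were taken in 5 consecutive windows, which run from the row named MIR99AHG to PAXBP1.AS1, OLIG2 to BACE2, MX2 to NDUFV3, ERVH48.1 to KRTAP10.4 and KRTAP10.5 to LINC00334. From the first to the last window the medians of DS3 were 0.09, 0.43, 0.34, 0.21 and 0.34, each above PC9-VU. Those of DS6 were -0.25, -0.48, -0.24, -0.15 and -0.39, each below it. The first window of DS3 had 7 of 10 rows above PC9-VU and the widest scatter (interval -0.43 to 0.60). The intervals of DS3 also spanned 0 in the fourth and last windows. Those of DS6 spanned 0 in every window but the last (-0.60 to -0.13).

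The other sublines were less even. DS8 had medians of -0.56, -0.43, -0.28, 0.08 and -0.52, and in the fourth window 5 of its 10 rows were above PC9-VU. Of those 5 rows, 3 lie over ADARB1 at their moved positions. The highest window of DS8 differed in sign between alternatives. It was -0.20 with 1 value per gene, -0.38 over rows with a mean of 50 counts or more and -0.32 with windows of 5 Mb. Windows of 15 rows gave -0.12, and names of protein-coding genes alone gave -0.031. The other alternatives kept it above 0, among them 0.17 with windows of 7 rows, 0.17 as a mean over rows and 0.57 without a filter. DS9 had -0.23, -0.51, -0.14, 0.02 and -0.28, also with 5 of 10 rows above in the fourth window. DS7 stayed closer to its parent, with 0.01, -0.18, -0.14, -0.07 and -0.33. In the last window none of the 11 rows was above PC9-VU in DS6, DS8 or DS9 and 1 was in DS7. At their moved positions 3 of these rows lie over PCNT. In PC9-MGH the same rows were scattered, with 3 above PC9-VU and an interval of -0.72 to 3.18. The intervals of the windows are wide. That of the fourth window was -0.45 to 0.88 in DS8, which spans the median of the window before it, and -0.14 to 0.32 in DS9, which does not overlap that of the last window (-0.38 to -0.17).

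PC9-BR1 had window medians of 0.04, -0.42, -0.11, -0.35 and -0.55, so its first window was near its parent and its last was the lowest. PC9-MGH changed direction from window to window, with -0.34, 0.36, -0.21, 0.61 and -0.44. Its range of 1.05 between windows was the widest of the 7 libraries, against 0.33 in DS6 and 0.34 in DS3 and DS7. It depended on the rows taken: with windows of 5 Mb its lowest and highest medians were -0.25 and 0.044, while rows averaging 50 counts or more gave -0.50 and 0.15. Windows of 7 rows gave -0.52 and 0.74, and windows of 15 rows gave -0.50 and 0.50.

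A split at the middle row gave the same picture in 2 parts. DS3 stood at 0.29 over the 25 rows on the centromere side and 0.26 over the 26 rows on the telomere side. The values were -0.28 and -0.30 in DS6, -0.09 and -0.17 in DS7, -0.45 and -0.32 in DS8, and -0.33 and -0.17 in DS9. In PC9-BR1 they were -0.33 and -0.37. Every one of these subline values lay on the same side of PC9-VU as the chromosome, although the centromere-side interval of DS7 (-0.41 to 0.11) spans 0, as does that of PC9-BR1 (-0.50 to 0.03).

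PC9-VU lay between the lowest and the highest of its 5 sublines in all 5 windows. It did so in 46 of the 51 rows, or 90.2%, where 84.7% of all rows did, so this is close to what rows of the table show in general. The arrangement of the sublines was less common elsewhere. In 18 of the 51 rows DS3 was the highest subline and above PC9-VU while the other 4 were all below it, an arrangement found in 5.34% of all rows. DS3 was the highest subline in 32 rows (20.7% of all rows) and the lowest in 2. DS8 was the lowest in 22 rows (25.6% of all rows) and the highest in 9. DS6 was the lowest in 15 rows and the highest in 1. Shares over all rows were not computed for DS6, for DS3 as the lowest or for DS8 as the highest, so those are values only. All counts of this arrangement restate the medians that chose the chromosome and are no separate evidence for them.

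**Figure D3:**
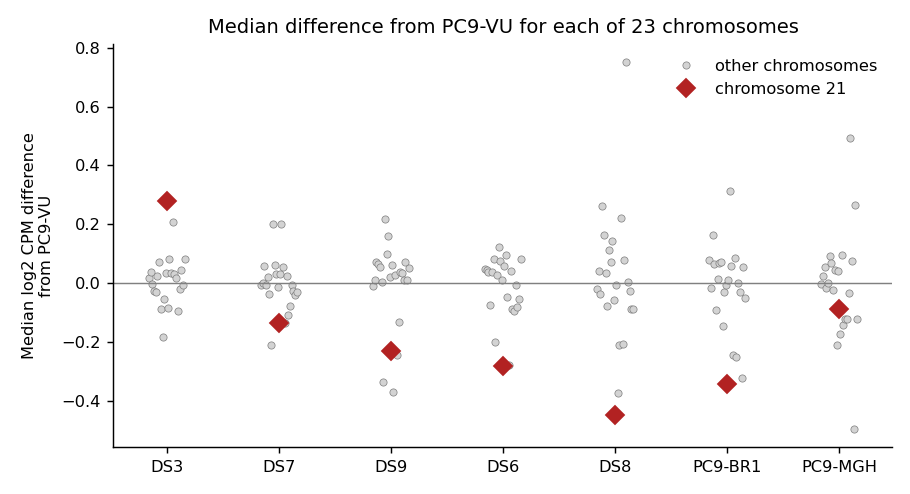
Median log2 CPM difference from PC9-VU for each of 23 chromosomes (chromosomes 1 to 22 and X) in each library, with chromosome 21 as a red diamond and the others as grey points spread sideways. Chromosome 21 is the highest point in DS3 at 0.28 and the lowest in DS6, DS8 and PC9-BR1.

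Set beside the other chromosomes, chromosome 21 had the highest median of 23 in DS3, where the next was 0.21 on chromosome 15. It had the lowest median in DS6, DS8 and PC9-BR1. In DS6 chromosome 15 was as low, at -0.28, and in PC9-BR1 chromosome 20 stood at -0.32. It ranked 22nd from the highest in DS7, 20th in DS9 and 16th in PC9-MGH. Between the lowest and the highest subline the chromosome spanned 0.73 log2 units, the second widest range of the 23 chromosomes after 0.84 on chromosome 18 and ahead of 0.57 on chromosome 13.

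The share of a library's counts that fell in chromosome 21 rows uses no median, filter or prior count. Nearly all of it lies in the 51 rows behind the medians, so it is no separate evidence for them. The rows under the filter held 131 of 10271 counts in PC9-VU and 214 of 11758 in DS3. All 298 rows held 0.294% of the counts of PC9-VU (0.288 to 0.299). The share was 0.365% in DS3 (0.358 to 0.372), 0.254% in DS7 (0.248 to 0.260), 0.252% in DS9 (0.246 to 0.257), 0.236% in DS6 (0.230 to 0.241) and 0.225% in DS8 (0.219 to 0.230). DS3 was above its parent, at 1.24 times its share (1.21 to 1.28), and the other sublines below it, down to 0.765 times (0.741 to 0.789) in DS8. The share was 0.239% in PC9-BR1 (0.233 to 0.245).

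PC9-MGH held 0.345% (0.338 to 0.352), next to DS3, although its median lay below that of PC9-VU. The 3 rows named KRTAP10.4, KRTAP10.5 and KRTAP10.12 held 24.2% of its chromosome 21 counts, against 3.09% in PC9-VU. Without them its share was 0.262% (0.256 to 0.268), below the 0.285% (0.279 to 0.290) of PC9-VU.

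**Figure D4:**
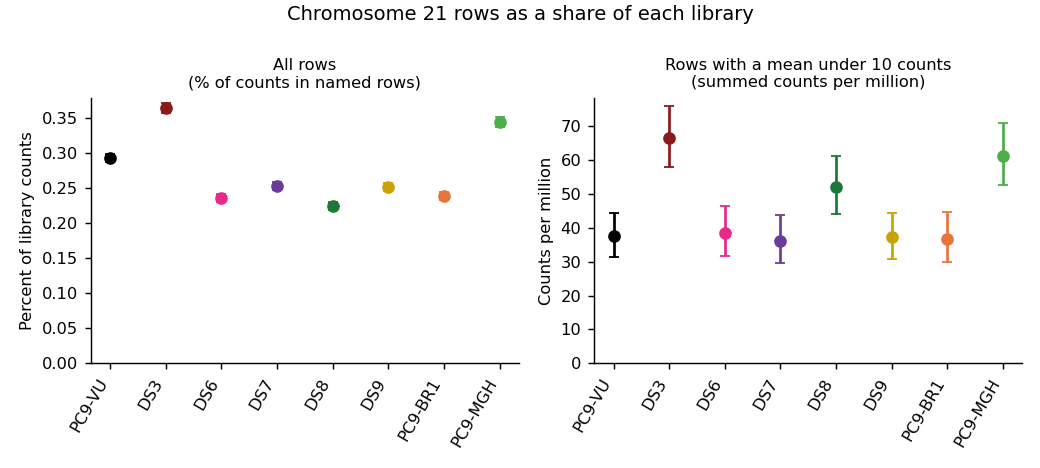
Left, counts in all 298 chromosome 21 rows as a percent of each library's counts in rows with a symbol. Right, summed CPM of the 247 rows with a mean under 10 counts. Points are single libraries and bars are exact 95% intervals for counting error; DS3 is the highest in both, at 0.365% and 66.4 CPM.

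The 247 rows under the filter took no part in the medians. Summed, they held 37.5 CPM in PC9-VU, 36.2 in DS7, 36.8 in PC9-BR1, 37.1 in DS9 and 38.6 in DS6, values that differ by less than their counting intervals. DS3 held 66.4, which is 1.77 times PC9-VU (1.42 to 2.22), and PC9-MGH held 61.2, 1.63 times (1.30 to 2.06). DS8 held 51.9, 1.39 times PC9-VU (1.09 to 1.77), although it was the lowest library over the 51 rows. No single row set these sums, since the highest held 20 of 214 counts in DS3, 29 of 177 in PC9-MGH and 13 of 148 in DS8. Relative to the library totals, 44 of these rows were higher in DS3 than in PC9-VU and 15 were lower, against 24 and 23 in DS8 and 28 and 23 in PC9-MGH. The same sums and counts were not computed over all low rows of the table. A shift of low rows in general therefore cannot be told apart from one of this chromosome. By these sums DS3 thus stood on the same side of its parent as above the filter, and DS6 and DS9 at its level. The sum of DS8 lay on the other side, although its rows were divided about evenly. The sum of PC9-MGH was also above that of PC9-VU.

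The 3 rows with the highest mean CPM followed the order of the medians in part. The row named TRAPPC10 had 413 CPM in PC9-VU, 583 in DS3, 386 in DS7, 379 in DS8, 375 in DS9, 324 in DS6, 320 in PC9-BR1 and 294 in PC9-MGH. DS3 was the highest library there and every other library was below PC9-VU. The row named NDUFV3 had 216 CPM in PC9-VU, 303 in DS3, 178 in DS9, 170 in DS6, 156 in PC9-MGH, 154 in DS7, 152 in PC9-BR1 and 132 in DS8, again with DS3 alone above the parent.

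The row named TMPRSS3 had 344 CPM in PC9-VU, 427 in DS3, 373 in DS7, 367 in PC9-MGH, 326 in PC9-BR1, 310 in DS9, 293 in DS6 and 276 in DS8. DS3 was the highest here too, but DS7 and PC9-MGH were also above PC9-VU. Without these 3 rows the share of counts kept DS3 above PC9-VU, at 0.235% and 0.194%, and put DS8 at 0.146%.

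The rows at the ends of the windows show the scatter between rows of low counts. The counts given here are not scaled to the library totals. The first counted row, MIR99AHG, had 52 counts in PC9-VU, 53 in DS7, 57 in DS9, 34 in DS3, 32 in DS6 and 25 in DS8. In CPM it had 14.5 in PC9-VU, 18.7 in DS7, 16.9 in DS9 and 10.6 in DS3, so DS3 was below its parent there. The last, LINC00334, had 96 counts in PC9-VU, 123 in DS3, 71 in DS9, 59 in DS6, 40 in DS7 and 29 in DS8, in the order of DS3, parent and other sublines.

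The other window ends also differed among themselves. In ERVH48.1, with 13 counts in PC9-VU, all 5 sublines were above the parent, by log2 differences of 1.08 in DS8, 0.98 in DS3, 0.44 in DS6, 0.19 in DS7 and 0.07 in DS9. In OLIG2, with 20 counts in PC9-VU, DS3 was at the level of the parent (0.01) and the other sublines were lower, at -0.46 in DS7, -0.60 in DS6 and -0.91 in DS9, with DS8 the lowest at 7 counts. PAXBP1.AS1, with 247 counts, had all sublines between -0.20 (DS6) and 0.20 (DS8). In MX2 and BACE2 DS3 was above the parent, at 0.46 and 0.44, and DS7, DS8 and DS9 were below it, while DS6 was at -0.17 and 0.05.

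**Figure D5:**
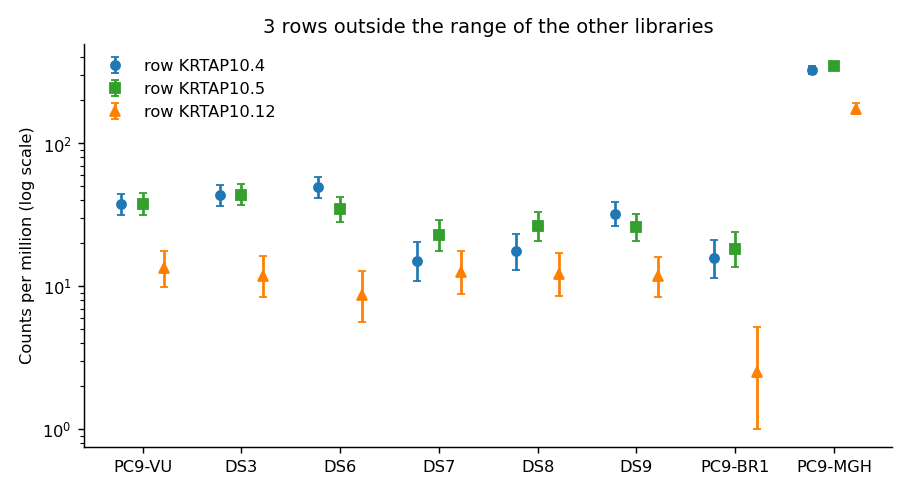
CPM, on a log scale, of the rows named KRTAP10.4, KRTAP10.5 and KRTAP10.12 in the 8 libraries, with exact 95% Poisson intervals. PC9-MGH lies above all other libraries in each row, at 326, 348 and 176 CPM, and PC9-BR1 lies below them in the third, at 2.52 CPM.

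Of the 51 rows, 3 lay in some library 2-fold or more beyond all of the other 7, or 5.88%, against 9.73% of all rows. They were neighbours in the order and were the rows counted above in the share of PC9-MGH. The row named KRTAP10.4 had 925 counts in PC9-MGH, against 134 in PC9-VU, 143 in DS6, 139 in DS3, 108 in DS9, 50 in DS8, 44 in PC9-BR1 and 43 in DS7, and was 8.55-fold higher in PC9-MGH than in PC9-VU. The row named KRTAP10.5 had 987 counts in PC9-MGH, against 135 in PC9-VU, 140 in DS3, 100 in DS6, 87 in DS9, 75 in DS8, 65 in DS7 and 51 in PC9-BR1, a 9.06-fold difference. In both rows PC9-MGH stood clear of 7 libraries that overlap each other in part. Counts of these 3 rows are not scaled to the library totals, while their fold differences come from log2 CPM.

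The row named KRTAP10.12 had 499 counts in PC9-MGH, against 48 in PC9-VU, 40 in DS9, 38 in DS3, 36 in DS7, 35 in DS8, 25 in DS6 and 7 in PC9-BR1. PC9-MGH was 12.5-fold above PC9-VU, and PC9-BR1 was the lowest library. At their moved positions the first 2 of these rows lie over COL6A1 and the third over COL6A2. The annotation of those positions does not show which transcript gave the reads, and this was not tested.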

How the data were processed

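Bulk RNA-seq libraries from 8 untreated PC9 populations were compared, 1 library each. The reads were mapped to hg38 by the authors using STAR (version 2.5.2b), counted with featureCounts (version 1.6.4) and deposited as raw counts per row with gene symbols, not normalized. Strandedness and the handling of shared reads are not given in the sources used here. Rows without a symbol (between 4.23% and 4.41% of counts) were left out.

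Row names, with hyphens read as dots, were matched to GENCODE release 44. Log2 CPM values came from edgeR (version 4.0.16, R version 4.3.3) with TMM factors and a prior count of 2, fitted over all libraries, for rows averaging 10 counts or more. DESeq2 (version 1.42.0) gave alternative size factors and rlog values. Windows held 10 rows, and exons were moved within 3 Mb in steps of 1 kb, then 200 bases, in Python (version 3.11.15). The log2 CPM values and the moving of exons were tried on simulated data, the latter in coarser steps and with a single distance. The separate distances of the sides and the border between them were not simulated. Intervals have a level of 95% (order-statistic for medians, Clopper-Pearson for shares, Poisson for counts).

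The members, the tests and the alternatives were chosen with earlier results of these data known. The rows named are the first and last of each window, the 3 with the highest mean CPM and those that in some library were 2-fold or more outside the range of all others. PCNT and ADARB1 were named after their values were seen.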

Additional observations from a re-analysis of the deposited data

How the results depend on the processing

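No paired analysis was possible because each population has 1 library and no result comes from a test. For the same reason no library could be left out as a replicate. Of 98 recomputed chromosome medians, 80 stayed within the interval of the reported value. The sign was opposite in 6. In PC9-MGH, whose interval spans 0, it was so in 4 of 14, with 0.072 against the median of the other 7 libraries, 0.11 as a mean over rows, 0.0058 with 1 value per gene at the moved positions and 0.13 over rows with a mean of 10 to 50 counts. The other 2 were PC9-BR1 over rows with a mean of 10 to 50 counts (0.017, chosen after seeing the data) and DS7 against the median of the other 7 libraries (0.025). Without a filter, the medians were -0.029 in PC9-BR1, -0.058 in DS6, 0 in DS7, -0.022 in DS8 and -0.047 in DS9. PC9-MGH was at 0 as well, while DS3 stayed at 0.26. That setting adds rows at or near 0 counts, and why the medians changed was not tested. The rlog transformation, which shrinks differences, gave 0.15 in DS3, -0.17 in DS6, -0.22 in DS8 and -0.13 in DS9. Against the other 7 libraries, DS3 gave 0.43, DS6 -0.12 and DS9 -0.060. Rows with a mean of 10 to 50 counts gave 0.18 in DS3, -0.14 in DS6, -0.17 in DS8 and -0.059 in DS9. Why those rows gave smaller values was not tested. The median of PC9-MGH ran from -0.19 to 0.13 over its 14 alternatives.

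For the rows on the centromere side, the values without a filter were 0.092 in DS3 and 0 in DS6, DS8 and DS9, and with rlog -0.16 in DS6 and -0.22 in DS8. On the telomere side DS6 gave -0.11 without a filter. The lowest window of DS8 was -0.71 over rows averaging 50 counts or more and -0.73 with windows of 15 rows. That of DS9 was -0.26 with rlog and -0.22 against the other 7 libraries, and the highest window of DS9 was -0.19 over rows averaging 50 counts or more and -0.17 with windows of 5 Mb. The highest window of DS8 was likewise below 0 there, as given beside its value. Without a filter the highest window of DS6 was 0.21. The highest window of PC9-BR1 was -0.29 over rows averaging 50 counts or more and -0.21 with windows of 5 Mb.

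The alternatives for counts of rows cover sets of different sizes. Leaving out the filter adds the 76 rows with counts but a mean under 10 to the 51. A mean of 50 counts or more leaves 35 rows, and names of protein-coding genes leave 37. Shares over all rows of the table were not computed for these settings, so the counts are given as values only. Counts of rows at least 1.5-fold apart depended on the filter. Without one, rows above PC9-VU numbered 31 in PC9-MGH, 16 in PC9-BR1, 21 in DS3, 12 in DS6, 18 in DS7, 8 in DS9 and 21 in DS8, and rows below 20 in PC9-MGH, 25 in PC9-BR1, 8 in DS3, 16 in DS6, 18 in DS7 and 16 in DS9. Over rows averaging 50 counts or more, rows above were 7 in PC9-MGH, 0 in PC9-BR1, 3 in DS3, 1 in DS8 and 0 in both DS7 and DS9, and rows below 5 in DS6 and 1 in DS9. With names of protein-coding genes alone, rows above were 1 in PC9-BR1 and 3 in DS3, and rows below 0 in DS3, 10 in DS8, 5 in DS7 and 3 in DS9. With library totals alone, rows above were 1 in DS7 and 0 in DS9. At 2-fold, rows above were 5 in PC9-MGH, 0 in PC9-BR1, 0 in DS3, 1 each in DS7 and DS8 and 0 in DS9, and rows below 3 in PC9-MGH, 4 in PC9-BR1, 0 in DS3, 1 in DS6, 2 in DS7, 5 in DS8 and 1 in DS9. PC9-VU lay between its sublines in 75 rows without a filter, of the larger set that takes in the 76 low rows.

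Without the 3 rows of highest CPM the share of counts was 0.194% in PC9-VU, 0.265% in PC9-MGH, 0.157% in PC9-BR1, 0.235% in DS3, then 0.157% in DS6, 0.165% in DS7, then 0.146% in DS8 and 0.165% in DS9. With all rows in the total it was 0.281%, 0.330%, 0.228%, 0.349%, 0.225%, 0.243%, 0.215% and 0.241% in the same order. Without the rows named KRTAP10.4, KRTAP10.5 and KRTAP10.12, an alternative added after seeing the data, it was 0.285% in PC9-VU, 0.262% in PC9-MGH, 0.355% in DS3, 0.227% in DS6, 0.219% in DS8 and 0.245% in DS9. The distance of the rows from their names was 1379 kb on the strand of the named gene, 1368 kb for rows averaging 50 counts or more and 1371 kb for the centromere-side rows.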

Other observations

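Rows assigned to the same gene at their moved positions, by largest overlap, varied among themselves. Over the 11 genes with more than 1 row, the median spread between rows of 1 gene was 0.18 log2 units in DS3, 0.20 in DS9, 0.29 in DS8, 0.32 in DS6, 0.40 in PC9-BR1, 0.41 in PC9-MGH and 0.55 in DS7. The middle 50% of all 51 rows spanned 0.39, 0.31, 0.57, 0.33, 0.60, 1.05 and 0.53 in the same libraries. In DS6 and DS7 rows of 1 gene were thus about as far apart as the middle of all rows. These spreads are on different measures (a range and an interquartile range) and are given as values only.

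Relative to the median of the other 7 libraries instead of PC9-VU, the chromosome stood at 0.43 in DS3 (interval 0.39 to 0.61), 0.22 in PC9-VU (0.07 to 0.33), 0.07 in PC9-MGH (-0.14 to 0.30), 0.02 in DS7 (-0.13 to 0.09), -0.06 in DS9 (-0.14 to 0.01), -0.12 in DS6 (-0.23 to -0.01), -0.19 in PC9-BR1 (-0.26 to -0.07) and -0.29 in DS8 (-0.38 to -0.07). PC9-VU itself was thus above the middle of the libraries.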
